A study of Mus musculus with 4 samples.

Results

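The 10 genes described here encode the 3 peroxisome proliferator-activated receptors (PPARs; Pparg, Ppara and Ppard) and proteins that take up, carry, store or burn fatty acids (Angptl4, Lpl, Cd36, Fabp4, Fabp5, Plin2 and Cpt1a). They were chosen by name from the 47729 genes of the table, by role, with the differences between the tumor groups in these data already known. Their group differences are therefore given as a description. They entered the fit across all genes, but no p-value is given for them, and counts of how many passed its threshold support nothing. RNA was sequenced from subcutaneous tumors of LLC cells, a Lewis lung carcinoma line of C57BL/6 origin, collected 5 days after grafting into syngeneic C57BL/6 mice. The LLC group received wild type cells, and the LLC-Chem group received cells transfected with pEFIN plasmids that encode chemerin(1-157), a bioactive form. Each group has 2 libraries, and each library is a pool of tumors. The study collected individual clones after selection of the transfected cells, and by their titles the LLC cells are wild type. A difference that follows transfection, vector, selection or clone therefore cannot be told apart from one that follows chemerin. The tumors also hold host cells, and in such bulk samples fewer cells of a type and less RNA per cell cannot be told apart.

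PPARs are nuclear receptors that bind fatty acids and their derivatives, pair with a retinoid X receptor (RXR) and act on genes of fatty acid handling. PPARγ is best known in adipocytes and macrophages, PPARα in tissues that burn fatty acids such as liver, and PPARδ is found in most cells. Lipoprotein lipase (Lpl) frees fatty acids from circulating triglyceride, Angptl4 inhibits it, Cd36 carries fatty acids across the membrane, Fabp4 and Fabp5 carry them in the cytosol, Plin2 coats lipid droplets, and Cpt1a admits long chain fatty acids to mitochondria. Angptl4, Plin2, Cpt1a, Fabp4, Cd36 and Lpl are all known PPAR targets in one tissue or another.

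The values are reads per 1000000 reads (RPM), deposited for each gene in each pool. The library totals worked out from the steps between RPM values ran from 28470000 to 33990000 reads, so that 3 reads, the smallest amount taken as shown, correspond to 0.088 to 0.105 RPM. Such a limit covers counting error only. Rarres2, the gene of chemerin, measured 102 and 98.2 RPM in LLC, against 105.9 and 105.8 RPM where the label is LLC-Chem (log2 fold change, log2FC, 0.08, limma's adjusted p = 0.541), so it gave no check of the labels. Of 5 markers of an epithelial carcinoma, Krt8 and Krt18 measured between 82.8 and 167 RPM in all pools, while Epcam stood at 0.20 RPM or less and Cdh1 at 1.40 RPM or less. Krt19 was low and uneven, with 5.20 and 15.3 RPM in LLC and 3.15 and 2.10 RPM in LLC-Chem tumors. The adjusted p from limma was 0.0578 for Krt8 (log2FC -0.67), 0.927 for Krt18 (log2FC 0.02) and 0.0663 for Krt19 (log2FC -1.63).

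Promoter sequences from RefSeq (GRCm38.p6) were available for 6 of the 10 genes, in 8 windows of 300 bases from 250 before a transcription start to 50 after it. They are shown because PPARs and RXR bind repeats of the half-site AGGTCA, and because many hypoxia-inducible factor sites hold the core ACGTG. Both strands were searched. Capitals mark these letters in 3 windows that hold the half-site, from Plin2, whose RNA differed widely between the groups, from Cd36, where both LLC-Chem pools were lower but 1 only narrowly, and from Cpt1a, whose RNA differed little. The Plin2 window is chr4:86670010-86670309 (minus strand), the Cd36 window chr5:17835847-17836146 (minus strand) and the Cpt1a window chr19:3323051-3323350 (plus strand).
Plin2: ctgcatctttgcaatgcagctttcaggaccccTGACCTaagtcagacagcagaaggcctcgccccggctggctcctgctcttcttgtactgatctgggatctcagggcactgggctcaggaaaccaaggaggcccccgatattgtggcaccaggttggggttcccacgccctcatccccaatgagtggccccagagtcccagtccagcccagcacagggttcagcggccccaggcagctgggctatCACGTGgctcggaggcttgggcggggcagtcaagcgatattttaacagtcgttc
Cd36: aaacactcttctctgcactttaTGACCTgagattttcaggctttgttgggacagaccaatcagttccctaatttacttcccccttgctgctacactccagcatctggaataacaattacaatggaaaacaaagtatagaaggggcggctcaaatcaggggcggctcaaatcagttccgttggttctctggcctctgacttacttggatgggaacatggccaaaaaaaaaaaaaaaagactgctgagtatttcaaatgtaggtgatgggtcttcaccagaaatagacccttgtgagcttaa
Cpt1a: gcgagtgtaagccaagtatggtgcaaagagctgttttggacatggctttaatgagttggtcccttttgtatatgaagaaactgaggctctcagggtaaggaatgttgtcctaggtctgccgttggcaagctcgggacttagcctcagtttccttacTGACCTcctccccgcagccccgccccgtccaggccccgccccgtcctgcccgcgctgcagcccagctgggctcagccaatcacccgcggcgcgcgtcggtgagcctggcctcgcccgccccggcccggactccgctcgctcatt
Each of the 3 windows holds 1 half-site, read on the opposite strand, beginning at base 33 of the window in Plin2, base 23 in Cd36 and base 157 in Cpt1a, counted from its 5′ end. The Plin2 window also holds 1 CACGTG, which carries the core ACGTG on both strands, so that the matches overlap there, and which is the letters of an E-box too. For Pparg, 2 of 3 windows hold the half-site. Ppard has 1 ACGTG and no half-site, and Ppara has neither. Across all 32851 promoter windows, 16.3% hold AGGTCA and 19.6% hold ACGTG. The full direct repeat, AGGTCA followed by a second AGGTCA after any 1 base, was found in 0.0396% of them and in 0 of the 8 windows of these genes.

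The 3 receptors stood at very different levels. Pparg (chromosome 6, 115360951 to 115490399 of GRCm38) measured 5.45 and 5.80 RPM in LLC, against 2.75 and 2.60 RPM in LLC-Chem pools. Pools of the same group were nearly equal, and both LLC-Chem pools lay below both LLC pools, at 47.6% of the LLC mean (log2FC -0.95, standard error, SE, 0.19). The difference is on the scale log2(RPM + 0.5), which understates the change of weakly expressed genes. Ppard (chromosome 17, 28232700 to 28301474) was the most abundant receptor, with 67.1 and 60.4 RPM in LLC and 70.5 and 69.7 RPM in LLC-Chem tumors. Its LLC-Chem pools were both higher, but the group means lay closer together than the LLC pools did to each other (log2FC 0.14, SE 0.10). Ppara (chromosome 15, 85734983 to 85802819) was barely detected, at 0.10 and 0.35 RPM in LLC and 0.40 and 0.05 RPM in LLC-Chem pools, or between 1 and 13 reads per pool. No fold change is given for it. Per kilobase of exon (the union over annotated transcripts), Ppard in the LLC pools averaged 8.48 RPM and Pparg 1.90 RPM.

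Angptl4 (chromosome 17, 33773750 to 33781830), a secreted inhibitor of lipoprotein lipase, showed a large difference and a very small spread. Its level was 157 and 154 RPM in LLC, against 51.4 and 54.2 RPM in LLC-Chem pools, that is, 155.8 ± 2.30 RPM (SD, n = 2) against 52.8 ± 2.01 RPM (SD, n = 2). The LLC-Chem mean was 33.9% of the LLC mean (log2FC -1.55, SE 0.09), and leaving out any pool kept the log2 fold change between -1.59 and -1.51. Its target enzyme Lpl (chromosome 8, 68880491 to 68907448) behaved differently. Lpl measured 103 and 229.7 RPM in LLC, against 114 and 75.3 RPM in LLC-Chem pools. The groups overlapped, since the first LLC pool lay below the first LLC-Chem pool, and the LLC pools themselves differed 2.22-fold (log2FC -0.73, SE 0.40). Leaving out the first LLC pool moved the log2FC of Lpl to -1.30, and leaving out the second moved it to -0.15.

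**Figure D1:**
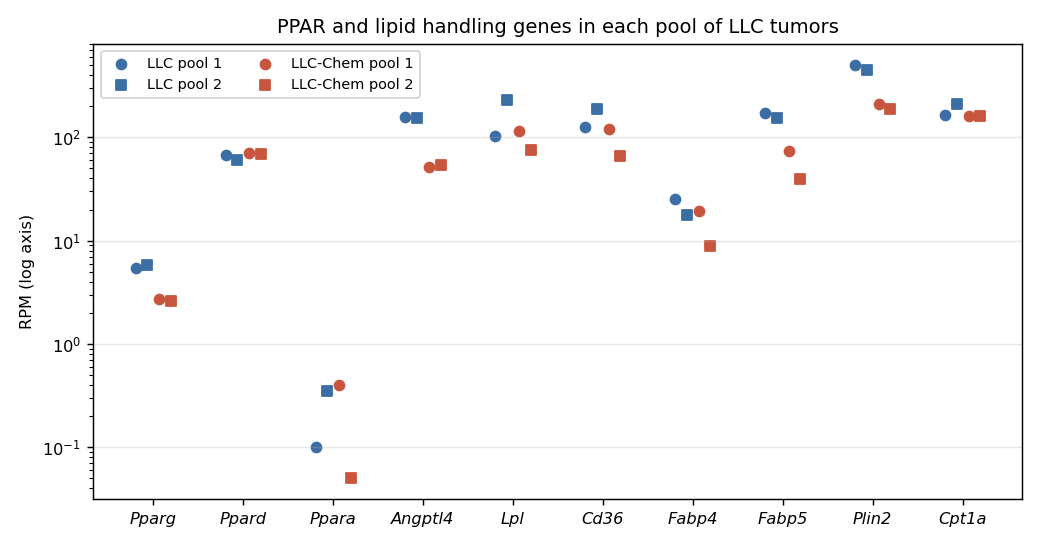
RPM of the 10 genes in each pool, on a log axis; circles are the first and squares the second pool of LLC (blue) and LLC-Chem (red) tumors. Angptl4, Fabp5, Plin2 and Pparg lie apart between the groups, while the pools of Lpl and Fabp4 overlap and Ppara stays at 0.40 RPM or less.

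Among the fatty acid carriers, the pools of Fabp5 were farthest apart between the groups. Fabp5 (chromosome 3, 10012548 to 10016607), an intracellular carrier common in epithelial cells and macrophages, measured 171 and 156 RPM in LLC, against 73.4 and 39.1 RPM in LLC-Chem pools. Both LLC-Chem pools were below both LLC pools, and the LLC-Chem mean was 34.5% of the LLC mean (log2FC -1.59, SE 0.29). The LLC-Chem pools differed 1.88-fold, so that the log2 fold change was -2.04 without the first of them and -1.15 without the second. Fabp4 (chromosome 3, 10204088 to 10208576), the carrier of adipocytes, macrophages and capillary endothelium, was much less abundant, with 25.2 and 17.6 RPM in LLC and 19.2 and 8.85 RPM in LLC-Chem tumors. Its groups overlapped (log2FC -0.67, SE 0.38), and its log2 fold change went from -1.21 without the first LLC-Chem pool to -0.13 without the second. The ratio of Fabp5 to Fabp4 in RPM was 6.77 and 8.84 in the LLC pools and 3.83 and 4.42 in the LLC-Chem pools, lower in both LLC-Chem pools. Cd36 (chromosome 5, 17781690 to 17888801), a scavenger receptor and fatty acid transporter, measured 126 and 187 RPM in LLC, against 121 and 66.5 RPM in LLC-Chem pools. The first LLC and first LLC-Chem pools were nearly equal, and the difference rests largely on the second pool of each group (log2FC -0.77, SE 0.32). It was -0.34 without the second LLC-Chem pool and -1.20 without the first.

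Plin2, which coats lipid droplets, lay far apart between the groups, and Cpt1a did not. Plin2 (chromosome 4, 86648386 to 86670060) was the most abundant of the 10 genes, with 506 and 446 RPM in LLC, against 209 and 189 RPM in LLC-Chem pools. The groups were far apart in relation to their spread, with 476 ± 42.3 RPM (SD, n = 2) against 199 ± 13.8 RPM (SD, n = 2), or 41.8% of the LLC mean (log2FC -1.26, SE 0.12). Cpt1a (chromosome 19, 3322334 to 3385733), the rate-limiting step of mitochondrial fatty acid oxidation, measured 163 and 212 RPM in LLC and 162.9 and 162.8 RPM in LLC-Chem tumors. The first LLC pool was nearly equal to both LLC-Chem pools (log2FC -0.19, SE 0.14), and the log2 fold change was -0.38 without that pool and close to 0 without the second LLC pool.

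**Figure D2:**
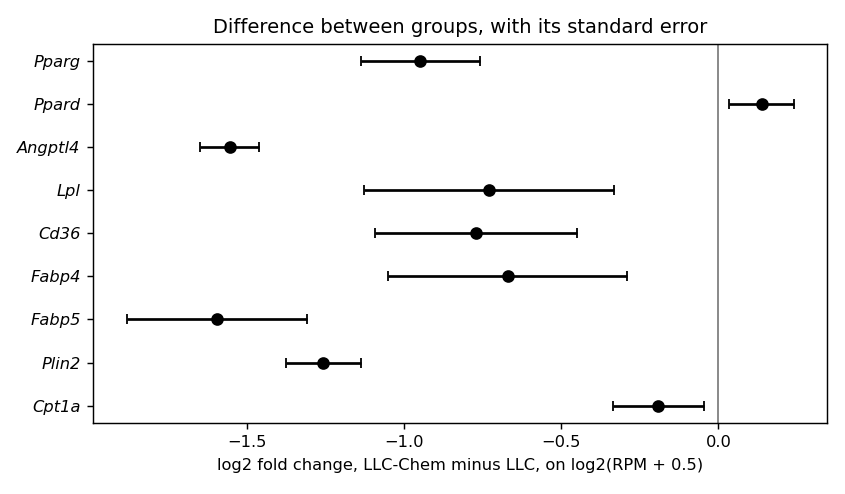
Log2 fold change (LLC-Chem minus LLC, on log2(RPM + 0.5)) of the 9 genes that average 1 RPM or more. Points are the differences of the group means and bars 1 standard error from the fit across all genes. Fabp5, Angptl4 and Plin2 lie at -1.59, -1.55 and -1.26, and Ppard and Cpt1a at 0.14 and -0.19.

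In the fit across the 13694 genes averaging 1 RPM or more, 4 of the 9 genes tested (Angptl4, Plin2, Fabp5 and Pparg) were lower at an adjusted p under 0.05, against 13.5% of all genes that were lower and 23.0% that passed in either direction. In 6 of the 9 both LLC-Chem pools lay below both LLC pools, an order found in 39.3% of all genes, and in Ppard both lay above, an order found in 33.1%, or 72.5% for either order. Since the genes were chosen with this contrast known, the choice itself could have fixed these counts, and nothing is read from them. Their median log2 fold change was -0.77, beside -0.04 for all genes tested.

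Compared per kilobase of exon, the order of the genes differed between the groups. The length used was the union of exons over all annotated transcripts, which can be longer than any 1 mRNA. For Fabp4 it was 4489 bases, the whole span of the gene. Values per kilobase can thus be too low for some genes, and the order between genes is rough. In the LLC pools Plin2 stood first with 135.6 RPM per kilobase, followed by Fabp5 (45.7), Angptl4 (44.0) and Cd36 (43.6), whose pools overlapped, and then by Cpt1a (24.5), Lpl (15.9), Ppard (8.48), Fabp4 (4.77) and Pparg (1.90 RPM per kilobase). The pools of Lpl and Cpt1a also overlapped, with 21.9 RPM per kilobase in the higher Lpl pool and 21.4 in the lower Cpt1a pool. In the LLC-Chem pools Plin2 was again first with 56.6 RPM per kilobase, followed by Cd36 (26.2) and Cpt1a (21.3), whose pools overlapped, and then by Fabp5 (15.8) and Angptl4 (14.9), which overlapped as well, as did Cd36 and Fabp5. Ppard (9.32), Lpl (9.05), Fabp4 (3.12) and Pparg (0.905 RPM per kilobase) came last, and the pools of Ppard and Lpl overlapped. The exons of the 10 genes share 0% of their bases with exons of another annotated gene. Words of 50 bases that also occur in transcripts of another gene made up 5.48% of those of Fabp5, 2.57% of those of Plin2 and 1.14% or less of those of each other gene. The words of Fabp5 were shared with 5 processed pseudogenes, of which Gm14328 had the highest value, 1.80 RPM in the first LLC pool.

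Genes with a pattern most like 2 of the members were looked for among 9827 other genes averaging 10 RPM or more, as the smallest root mean square difference of log2(RPM + 0.5), centred for each gene, over the 4 pools. Nearest to Angptl4 were Pou2f2 (0.10), Ccdc88c (0.13) and Col12a1 (0.14). Col12a1, for example, measured 155 and 157 RPM in LLC, against 63.8 and 54.1 RPM in LLC-Chem pools. Nearest to Cd36 were Cd302 (0.04), App (0.05) and Cd68 (0.05). Cd68, a macrophage marker, measured 231 and 331 RPM in LLC, against 209 and 110 RPM in LLC-Chem pools, and thus had its highest and lowest values in the same pools as Cd36.

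Genes of PPAR signalling and fatty acid handling other than these 10 were taken from 7 lists of 137 genes in all, drawn up with earlier results of these data known. By limma on log2(RPM + 0.5), two-sided and with Benjamini-Hochberg adjustment over all genes tested, 15 of the 98 that could be tested fell in LLC-Chem tumors (15.3%) and 5 rose (5.10%), where 13.5% of all genes fell and 9.54% rose. The share that fell ran from 45.5% in the list of lipoprotein lipase regulators and lipoprotein uptake to 0% in the mitochondrial list. The median log2 fold change of the 98 genes was -0.11, beside -0.04 over all genes tested. With any 1 of the 4 pools left out, limma called none of these genes in either direction, and between 3 and 15 were higher and between 14 and 27 lower at an unadjusted p under 0.05.

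The falls included a receptor and a ligand of lipoprotein uptake. Of 11 genes tested in the list of lipoprotein lipase regulators and lipoprotein uptake, 5 fell and 0 rose by limma (0 higher at an unadjusted p under 0.05, and 0 by edgeR and DESeq2). Apoe, the apolipoprotein E of macrophages and liver, was among the most abundant, with 1876 and 2674 RPM in LLC, against 466 and 279.9 RPM in LLC-Chem pools, so that the groups were far apart (log2FC -2.63, SE 0.30, limma's adjusted p = 0.0117). Gpihbp1, which holds lipoprotein lipase on capillary endothelium, went from LLC values of 8.10 and 5.15 RPM to LLC-Chem values of 1.65 and 0.30 RPM (log2FC -2.41, SE 0.51, limma's adjusted p = 0.0301, and 0.0503 from edgeR). Its log2FC was -3.12 when the first LLC-Chem pool was left out and -1.70 when the second was. The receptor gene Vldlr fell too (log2FC -0.85, SE 0.15, limma's adjusted p = 0.0209). Also among those that fell, and named after its values were seen, was Lipg, an endothelial lipase, with 6.70 and 2.15 RPM in LLC and 0.75 and 0.70 RPM in LLC-Chem tumors (limma's adjusted p = 0.0473, and 0.0539 with a pseudocount of 1). The log2FC of Lipg, -1.83 over all pools, was -1.11 when the first LLC pool was left out and -2.56 when the second was.

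Among 15 partners and coregulators of the PPARs tested, 2 fell and 3 rose. Nr1h3, the liver X receptor of macrophages and liver, went from LLC values of 19.8 and 17.5 RPM to LLC-Chem values of 6.15 and 4.50 RPM (log2FC -1.73, SE 0.20, limma's adjusted p = 0.0126), whereas its relative Nr1h2 rose from LLC values of 71.8 and 79.6 RPM to LLC-Chem values of 103.7 and 98.3 RPM (log2FC 0.42, limma's adjusted p = 0.0429). The coactivators Ncoa1 and Ncoa2 rose by small amounts, with log2 fold changes of 0.51 and 0.44 (limma's adjusted p values 0.049 and 0.0475). The corepressor Nrip1 fell (log2FC -0.50, limma's adjusted p = 0.0406). Rxra, the partner receptor, measured 93.6 and 99.2 RPM in LLC and 80.6 and 77.5 RPM in LLC-Chem tumors and did not pass the test (limma's adjusted p = 0.0816).

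In the list of fatty acid uptake, binding and activation, 3 of 11 genes tested fell. Acsl5 and Acsl6, which activate long chain fatty acids, fell with log2FC values of -0.61 and -1.14, as did Dbi, the acyl-CoA binding protein, with -0.58 (limma's adjusted p values 0.02, 0.0235 and 0.0266). Fabp3, the carrier of heart and muscle, was below the limit for testing, at 0.40 to 1.15 RPM. Of 16 genes of triglyceride synthesis and lipid droplets tested, 1 fell, namely Bscl2, the gene of seipin (log2FC -0.76, limma's adjusted p = 0.025). Plin3, a droplet coat protein like Plin2, was higher in both LLC-Chem pools at 117 and 119 RPM, against 97.9 and 98.7 RPM in LLC, but did not pass (limma's adjusted p = 0.0847). Hilpda, an inhibitor of lipolysis found at droplets, measured 96.5 and 54.5 RPM in LLC and 62.1 and 50.1 RPM in LLC-Chem tumors, and its groups overlapped (limma's adjusted p = 0.346). Of 7 genes of lipolysis tested, 2 fell. These were Mgll, the monoacylglycerol lipase, with a log2 fold change of -1.30, and Abhd5, the coactivator of the triglyceride lipase, with -0.67 (limma's adjusted p values 0.0291 and 0.0218). That lipase itself, Pnpla2, did not pass (log2FC -0.30, limma's adjusted p = 0.175).

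Among genes of fatty acid oxidation, the share of the mitochondrial list that rose and the share of the peroxisomal list that fell lay near those of all genes. Of 22 mitochondrial genes tested, 2 rose (9.09%, beside 9.54% of all genes) and 0 fell by limma (2 lower at an unadjusted p under 0.05, and 0 by edgeR and DESeq2). Acadm, a medium chain dehydrogenase, rose from LLC values of 62.6 and 61.7 RPM to LLC-Chem values of 80.3 and 81.8 RPM (log2FC 0.38, limma's adjusted p = 0.0412). Acacb, whose product inhibits Cpt1a, was weakly expressed and rose from LLC values of 1.50 and 1.55 RPM to LLC-Chem values of 3.65 and 3.20 RPM (log2FC 0.95, limma's adjusted p = 0.0334). Cpt2, which acts after Cpt1a, had a log2 fold change of -0.22 and did not pass (limma's adjusted p = 0.27). Of 16 genes of peroxisomal oxidation and other PPAR targets tested, 2 fell (12.5%, beside 13.5% of all genes), among them Creb3l3 (log2FC -1.53, SE 0.34, limma's adjusted p = 0.0344). Pdk4, a PPAR target in many tissues, measured 2.50 and 3.60 RPM in LLC and 1.80 and 1.30 RPM in LLC-Chem tumors and did not pass (limma's adjusted p = 0.0857).

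**Figure D3:**
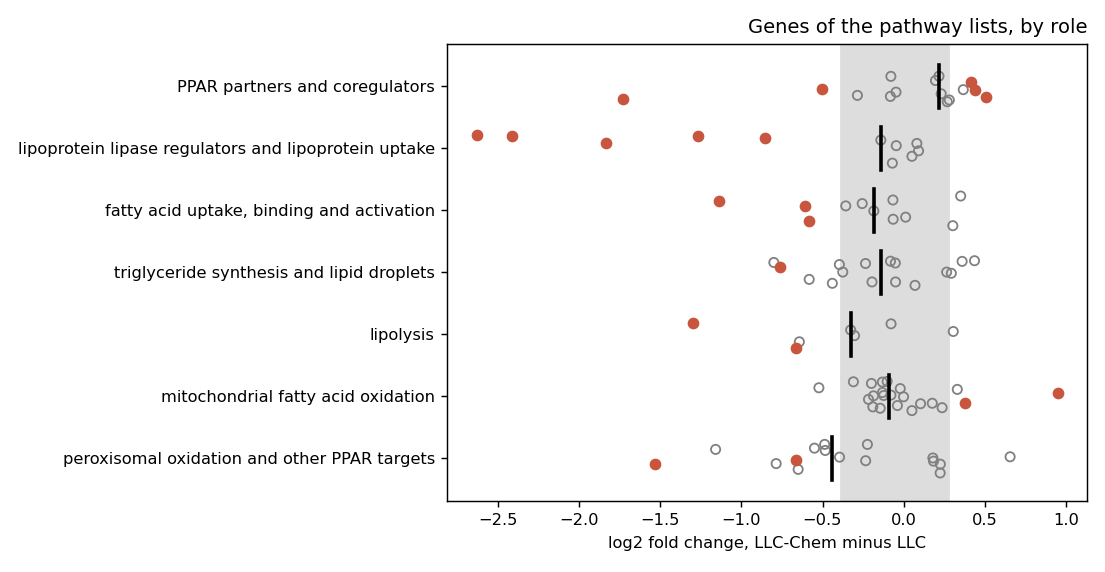
Log2 fold change (LLC-Chem minus LLC) of the 98 tested genes of 7 lists, 1 row per list; filled red points passed limma at an adjusted p under 0.05, open points did not, black lines are list medians and the grey band spans the middle 50% of all genes tested (-0.39 to 0.28). The list of lipoprotein uptake reaches -2.63, whereas the 22 mitochondrial genes lie between -0.52 and 0.95.

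Markers of host cells moved in the same pools. All 10 endothelial markers had both LLC-Chem values below both LLC values, and 9 passed the test. Their summed level was 293 and 196 RPM in LLC, against 74.4 and 44.3 RPM in LLC-Chem pools. Gpihbp1 amounted to 2.76% and 2.63% of that sum in the LLC pools and to 2.22% and 0.677% in the LLC-Chem pools. Of 10 macrophage and monocyte markers, 6 fell, and 9 were lower in both LLC-Chem pools, the exception being Mrc1 (log2FC -0.06, limma's adjusted p = 0.769). Their summed level was 4366 and 7148 RPM in LLC, against 3479 and 1839.9 RPM in LLC-Chem pools, an order of pools shared with Cd36, Pparg and Cpt1a and not with the other 6 genes tested. Cd36 amounted to 2.90% and 2.61% of that sum in LLC, against 3.49% and 3.62% in LLC-Chem pools, and Lpl to 2.37% and 3.21%, against 3.29% and 4.09%. Plin2 amounted to 11.6% and 6.24% of it in LLC, against 6.00% and 10.3% in LLC-Chem pools, and Angptl4 to 3.61% and 2.16%, against 1.48% and 2.95%. Fabp5 amounted to 3.91% and 2.18%, against 2.11% and 2.13%, and Fabp4 to 0.578% and 0.246%, against 0.552% and 0.481%. The groups thus overlapped in this ratio for Plin2, Angptl4 and Fabp4, both LLC-Chem values were higher for Cd36 and, narrowly, for Lpl, and both were lower for Fabp5, by little in relation to the second LLC pool. Lpl, Cd36, Fabp4, Fabp5 and Nr1h3 are also expressed by macrophages or endothelium. What part those cells had in the differences was not tested.

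**Figure D4:**
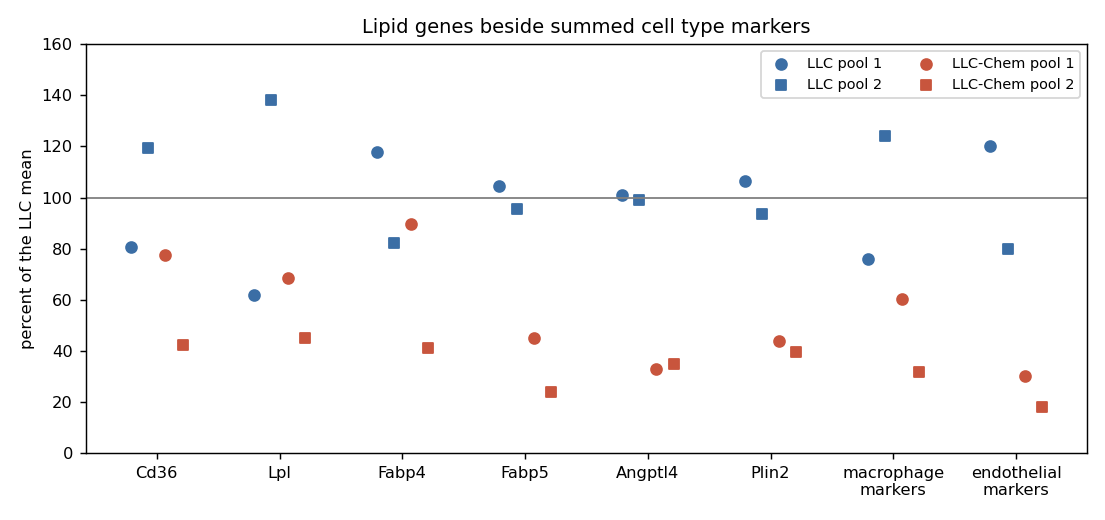
Level in each pool as a percentage of the LLC mean, for 6 of the genes and for the summed RPM of 10 macrophage and monocyte and 10 endothelial markers; colours and symbols mark group and pool. Cd36 and the macrophage markers have the same order of pools (119% and 124% in the second LLC pool, 42.5% and 32.0% in the second LLC-Chem pool), whereas both LLC pools of Angptl4 lie near 100% and both LLC-Chem pools near 34%.

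Markers of other tissue were low. The 8 adipocyte markers summed to 11.6 and 11.0 RPM in LLC, against 32.0 and 12.3 RPM in LLC-Chem pools, and 1 of the 3 tested, Cfd, rose (log2FC 2.16, limma's adjusted p = 0.0466, and 0.0513 with a pseudocount of 1), while 4 of the 8 also stand in the pathway lists. The log2FC of Cfd was 1.28 without the first LLC-Chem pool and 3.04 without the second. Plin1, the droplet coat of adipocytes, measured 0.30 and 0.25 RPM in LLC and 1.55 and 0.25 RPM in LLC-Chem tumors. The 5 skeletal muscle markers summed to 5.35 RPM or less, with Ckm and Myh4 at 0 in every pool and the 1 tested, Tnnt3, higher, and the 4 keratinocyte markers to 4.45 RPM or less, with Krt5 and Krt14 at 0.05 RPM or less. In the first LLC-Chem pool, where the adipocyte sum was highest, Fabp4 (19.2 RPM) lay between both LLC pools and Plin2 (209 RPM) below them.

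Angptl4, Plin2 and Hilpda are also known to be induced by hypoxia. Of 10 other hypoxia-inducible genes, 7 rose in LLC-Chem tumors (70.0%, beside 9.54% of all genes). In 9 of the 10 both LLC-Chem pools lay above both LLC pools, and in 1 both lay below. These orders were found in 33.1% and 39.3% of all genes. The median log2 fold change over the 10 was 0.86, with a range from -0.25 to 1.65. However, Adm, Pdk1 and Ndrg1 among them were also picked by the study from these libraries. Egln3, an oxygen sensor, went from 149.7 and 157 RPM in the LLC pools to 337 and 322 RPM in the LLC-Chem pools (log2FC 1.10, limma's adjusted p = 0.0091). In the same pools Angptl4 and Plin2 stood at 33.9% and 41.8% of their LLC means. What part hypoxia had in these values was not tested.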

How the data were processed

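Tumor RNA was profiled in 4 pools, 2 of LLC and 2 of LLC-Chem tumors, grouped by the sample titles. Per the methods and processing notes, the authors aligned the reads by STAR (GRCm38.p4/mm10), obtained gene counts by HTSeq (versions and strand setting are not given in the sources used here) and deposited RPM for 47729 genes. All nonzero RPM (100%, to within 0.1 step) were whole multiples of 0.04997 RPM. Totals per library were searched in steps of 1000 reads, assuming reads scaled to 20000000 and rounded up, and the reads of each gene were recovered to within about 1 read. Counting error weighs most on Ppara (1 to 13 reads per pool) and Pparg (87 to 168).

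The main test was limma (version 3.58.1, R 4.3.3; lmFit, then eBayes with a trend; two-sided; Benjamini-Hochberg) on log2(RPM + 0.5) of 13694 genes averaging 1 RPM or more, because RPM are not counts. The p-values and standard errors start from the spread between 2 pools per group, which may be technical in part. The eBayes step draws each gene's variance toward that of genes of like abundance. They are therefore not measures of the gene's own spread alone, which can be wider or narrower. Permuting 2 against 2 pools cannot reach 0.05 for any one gene. Alternatives were pseudocounts of 0.1 and 1, TMM scaling, no filter on low values, a replicate block, edgeR 4.0.16 and DESeq2 1.42.0 on the recovered reads, and leaving out each pool. A block with the numbers crossed was chosen after seeing the data. With edgeR (quasi-likelihood) on the recovered reads, 1551 genes were higher and 1600 lower.

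The genes and lists were chosen with earlier results of these data known. Named are the 10 genes, up to 4 called genes per direction in each list with the smallest adjusted p, 8 genes whatever their result (Rxra, Gpihbp1, Hilpda, Pdk4, Pnpla2, Fabp3, Plin3 and Cpt2), the 3 genes most like Angptl4 and Cd36, and markers. Some genes that the rule names are not reported here. Gene models are from GENCODE M21 (GRCm38), matched by identifier, and promoters from RefSeq (GRCm38.p6), matched by symbol.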

Additional observations from a re-analysis of the deposited data

How the results depend on the processing

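The 9 tested genes of the 10 kept their direction under pseudocounts of 0.1 and 1, TMM scaling, edgeR and DESeq2. Counts of calls among them are given below for completeness and support nothing, since they were chosen on this contrast. Without a filter on low values (26260 genes) limma called 1 gene higher and 0 lower in all, 0 of the pathway genes and 0 of the 10 genes, against 3394 higher and 4003 lower, 19 higher and 25 lower, and 4 lower at an unadjusted p under 0.05. With any 1 pool left out, limma's calls ranged from 0 to 0 for all genes, for the pathway lists and for the 10 genes, against 998 to 2359 genes higher and 1580 to 2823 lower at an unadjusted p under 0.05. The 5 rises in the pathway lists became 8 with TMM scaling, 8 with edgeR and 9 with DESeq2, and the cause was not tested. TMM scaling moved the median log2 fold change of all genes from -0.04 to 0.00265. The log2 fold change of Hilpda ranged from -0.78 without the second LLC pool to 0.035 without the first.

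Deviations from the group mean correlated at -0.14 between pools with the same number, over 13694 genes, and the numbers were not taken to pair the pools. With the replicate number as a block, limma called 549 genes higher and 1064 lower in all, 0 higher (9 at an unadjusted p under 0.05) and 8 lower in the pathway lists, and 3 of the 10 genes lower, against 4 without the block. All 8 were among the 15 reported. Of the pathway genes named above, Nr1h2, Ncoa1, Ncoa2, Nrip1, Lipg, Bscl2, Mgll, Abhd5, Acadm, Acacb and Creb3l3 no longer passed with this block. With the numbers crossed between the groups, limma called 1579 higher and 2320 lower in all, 7 higher and 16 lower in the lists, and 6 of the 10 genes lower. Depth limits Ppara, at 1 to 13 reads per pool.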
